A study of Homo sapiens with 3 samples.

Results

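The genes of the mitochondrial ribosomal proteins were followed in A2780, a human ovarian cancer line, with and without exogenous miR-181a. They were chosen by symbol alone (MRPL or MRPS, a number and at most a letter A to C), which found 76 of the 18877 gene symbols in the coverage table, 47 named for the large subunit and 29 for the small one. These genes held 109 of the 29156 RefSeq transcript rows. A vector value was listed for 75 of the 76 genes, and all 75 were above the filter on low values and entered the test. For MRPL16, a large-subunit protein (NM_017840), the vector cell is blank, and its coverage was 34.6 in pool 1 and 25.1 in pool 2.

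The control cells carried the empty pBABE vector (1 library), and the other cells stably expressed introduced miR-181a (1 library each from p181a #1, called pool 1 here, and from p181a #2, called pool 2). A2780 comes from an undifferentiated ovarian tumour, and all 3 cultures were grown in the same medium. The labels describe the miR-181a cells as polyclonal pools in one field and as clones in another. How far the pools are independent cultures is not stated, so p-values reflect only how far these libraries spread, and part of that may be technical.

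Mitochondria keep a small genome whose messenger RNAs encode membrane subunits of the respiratory chain and of ATP synthase, and a dedicated ribosome translates them. Its RNAs come from the mitochondrial genome, whereas all of its proteins are encoded in the nucleus, made in the cytosol and imported. Some of these proteins have a counterpart in the bacterial ribosome, and others are found only in mitochondria, where they cover the surface, bind the messenger RNA at its entry or anchor the ribosome to the inner membrane. The genes are active in practically every tissue. The libraries hold poly-A RNA, and the translation of the mitochondrial genome was not measured.

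Values are coverage, the median read density in windows of 50 bp along a transcript, so levels of different genes can be set side by side without a correction for length. No read counts accompany them and the depth is unknown. Differences are given as log2(coverage + 1) of the pools minus that of the vector library, here called the log2 fold, a scale on which changes of weakly covered genes look smaller than they are. Coverage over all usable rows came to 798228 with the vector, 907092 in pool 1 and 719263 in pool 2, and the share of transcripts listed at 0 was 12.8%, 32.3% and 32.2%. The vector library thus lists signal for many transcripts that are at 0 in the pools. Of 9 epithelial and ovarian carcinoma markers, 7 were at 0 in both pools, and their summed coverage was 234 with the vector, 15.8 in pool 1 and 15.4 in pool 2. CDH1 and WT1 were at 0 in all 3 libraries, and EPCAM was listed at 66.3 with the vector and at 0 in the pools. VIM, an intermediate filament of mesenchymal cells, stood at 1173, 2328 and 2007. Of the other mesenchymal markers, CDH2 (7.02, 51.5 and 39.7) was higher in both pools and FN1 (2.84, 0 and 0) lower. Summed coverage of 4 endothelial markers was 220.3, 0 and 0.0370, that of 4 immune markers 28.6, 0.0440 and 0.0635, and that of 4 fibroblast markers 169, 484 and 423. Most of the last sum is DCN (144, 479.6 and 420.3), and of the other fibroblast markers PDPN (16.8, 0 and 0) and COL1A1 (7.41, 0 and 0.706) were lower in both pools and PDGFRB (1.08, 4.19 and 1.92) higher. The endothelial sum includes KDR, a receptor (167 with the vector, 0 in the pools). The immune sum includes CD3E, a T-cell receptor subunit (17.4 and 0). Mitochondrial ribosomal protein genes are active in all these cell types, and the part of the marker signal in the results below was not tested. In bulk RNA, fewer cells of a type and less RNA per cell cannot be told apart. The labels name A2780 for all 3 libraries, and the source of the marker signal was not tested.

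All 75 genes were covered in all 3 libraries, and none was listed at 0. Exons of 32 of the 76 genes overlap those of another coding gene, among them MRPL2, MRPL12, MRPL47, MRPL51, MRPS25, MRPS28 and MRPS34, and 81 annotated pseudogenes bear the names of 35 of the genes, so some reads may be shared with these neighbours and copies. The median over the genes was 43.2 in the vector library, with a range from 8.85 to 439.7. It was 57.1 in pool 1 (12.1 to 266) and 41.0 in pool 2 (11.4 to 248). The median of pool 2 was thus close to that of the vector library and pool 1 stood above both. For comparison, the median over 82 cytosolic ribosomal protein genes was 524, 693 and 576, and over 81 nuclear-encoded subunits of oxidative phosphorylation it was 103, 132 and 102. Both of these related groups had its highest median in pool 1 as well.

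**Figure D1:**
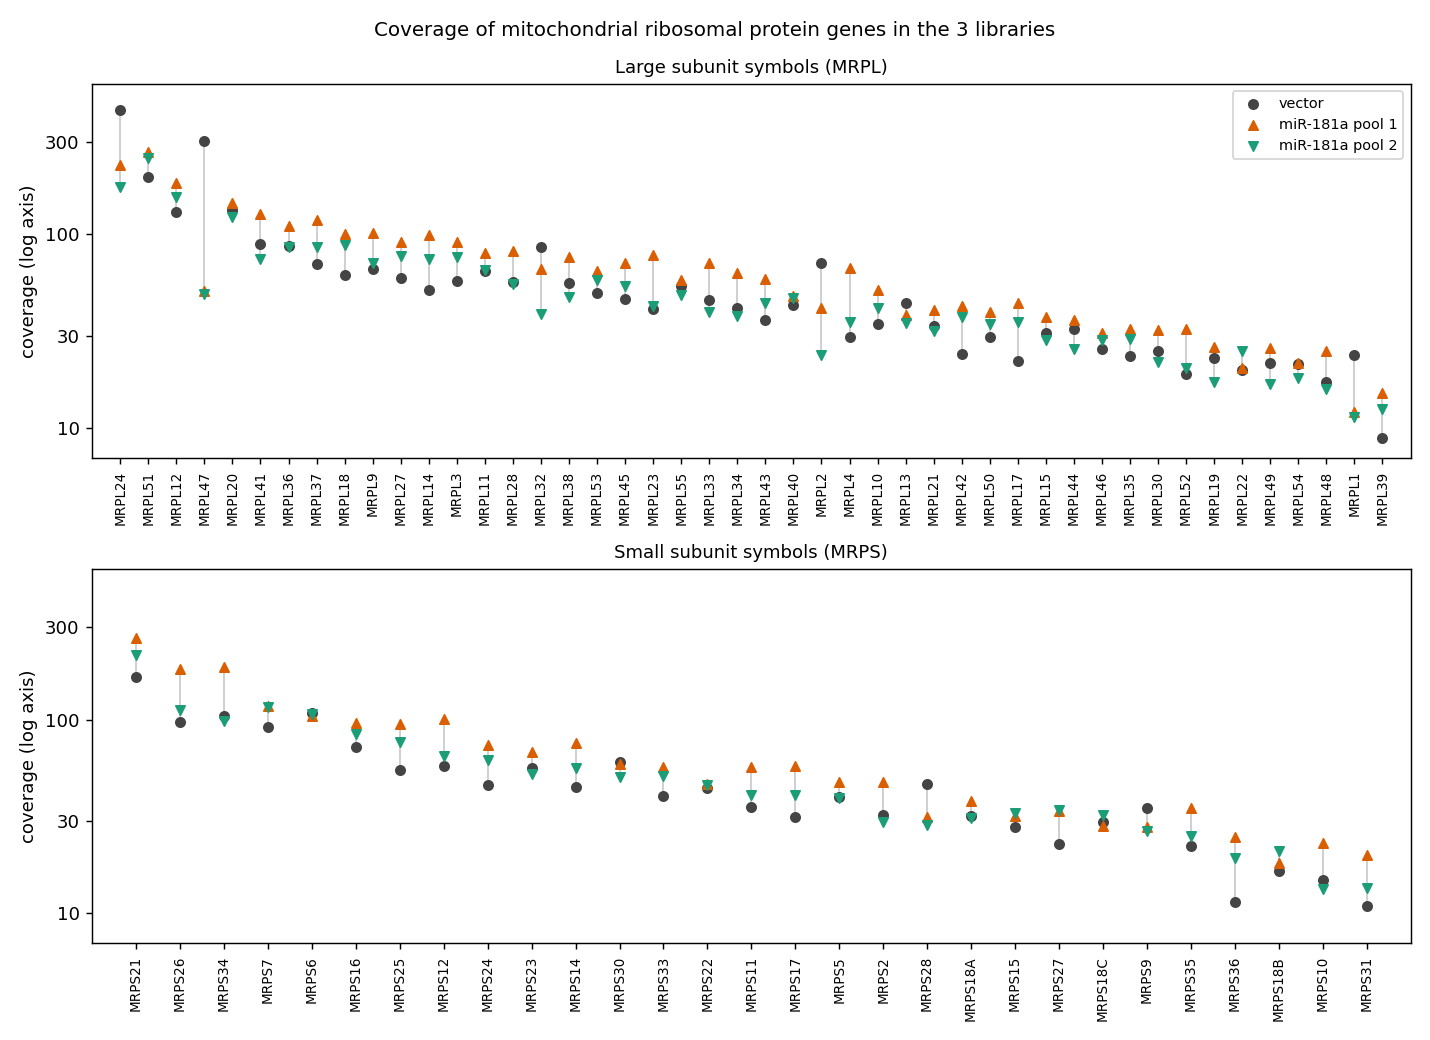
Coverage (log axis) of the 75 genes in the vector library (circles) and the miR-181a pools (upward and downward triangles), 1 value per library, ordered by mean coverage, with symbols of the large subunit above and of the small subunit below. Most genes have 3 values close together, and MRPL47 and MRPL24 have vector values of 304 and 439.7 far above both pools.

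The genes of highest mean coverage were MRPL24, MRPL51, MRPS21 and MRPL12. MRPL51, a protein found only in mitochondrial ribosomes, reached 198 with the vector, 266 in pool 1 and 248 in pool 2. MRPS21, a small-subunit protein with a bacterial counterpart, had 167, 265 and 215. MRPL12, which forms the flexible stalk that recruits translation factors, had 131, 185 and 155. In each of these 3 genes both pools stood above the vector library, by log2 folds of 0.37, 0.52 and 0.37, and none passed the test. At the other end were MRPL39 (8.85 with the vector, 15.2 in pool 1, 12.6 in pool 2), MRPS31 (10.9, 19.9, 13.5) and MRPS10 (14.8, 23.0, 13.3), together with MRPL1, described below. The order of the genes was alike in the libraries. Across the 75 genes, log2 levels in the pools correlated with a Pearson's r of 0.96 (Spearman's rho 0.96), against 0.85 (0.88) for the vector library with pool 1 and 0.86 (0.88) with pool 2. Without MRPL24 and MRPL47 the last 2 were 0.91 (0.90) and 0.91 (0.89) over 73 genes. These are correlations across genes, which share library and mapping and are not independent replicates.

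The series title concerns the target genes of miR-181a, and the pools were therefore set against the vector library. Of the 75 genes, 0 rose and 1 fell, MRPL47 (limma, Benjamini-Hochberg adjusted p below 0.05 over all 12552 genes tested). Over all genes tested, 1.00% rose and 21.7% fell at this adjusted threshold. At an unadjusted limma p below 0.05 there were 2 of the 75, MRPL47 and MRPL24. The share of all genes at the unadjusted threshold is not given here. Of the 12552, 1535 were at 0 in both pools and so passed the filter only through the vector value, against 0 of the 75. Among the 2186 genes with a mean coverage above 50, 4 rose and 210 fell. The vector group is 1 library, and the test takes its spread from the pools with 1 residual degree of freedom. By size alone, 0 genes were at least 1 log2 unit higher in both pools (2.53% of all genes tested) and 1 was at least 1 log2 unit lower (27.3%), again MRPL47. Among the 2186 better covered genes these were 61 and 254. Of the 75 genes, 72 had a mean log2 fold within 1 unit of the vector library, and 33 were within 0.5 in each pool. Shares of all genes within these limits are not given here, so these counts are not read as a result about the family.

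The sign of the difference leaned upward. Both pools stood above the vector value in 42 genes (56.0%, against 44.6% of all genes tested) and below it in 10 (13.3%, against 41.8%). In the remaining 23 the pools lay on opposite sides, and in 22 of these pool 1 was the higher one. The median log2 fold was 0.23, with quartiles of 0.08 and 0.49 and a range from -2.58 to 0.89. It was 0.46 in pool 1 and 0.11 in pool 2. Over all genes tested the median was 0.07 (0.24 and -0.12 in the pools) and the quartiles were -1.48 and 0.54. Among the 2186 genes with a mean coverage above 50, the median was 0.39 (0.55 and 0.21), 66.3% were higher in both pools and 19.5% lower in both. Cytosolic ribosomal protein genes had a median of 0.28 (0.47 and 0.17), with 57 of 82 higher in both pools, 6 lower in both, 0 that rose and 0 that fell. Oxidative phosphorylation subunits had a median of 0.36 (0.50 and 0.20), with 58 of 81 higher in both, 10 lower in both, 0 that rose and 2 that fell. The median of the mitochondrial ribosomal protein genes was therefore the lowest of the 3 groups, and it lay below that of genes with a mean coverage above 50. The groups differ in coverage, with vector medians of 43.2 in the family, 524 in the cytosolic group and 103 in the oxidative phosphorylation group. With the filter at the median, all genes tested had a median log2 fold of 0.24 and the family 0.23. The part of coverage in this order was not tested.

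These counts depend on how the libraries are brought to one scale. With library medians set equal, 62 of the 75 genes rose and 4 fell, beside 6355 and 3701 of all genes tested. With quantile normalization 23 rose and 3 fell (5641 and 3338 of all genes), and the median log2 fold was 0.41. With each pool shifted down by its median difference from the vector library in genes with a mean coverage above 50 (0.55 and 0.21), 1 rose and 13 fell (1039 and 5390 of all genes), and the median log2 fold was -0.15. Shifts by genes with a pool mean above 50 (0.64 and 0.30) were chosen after the data had been seen. With them 0 of the genes rose and 16 fell (710 and 5784 of all genes), and the median was -0.24. A direction for the family as a whole is thus not fixed by these values. MRPL47 fell under every scaling named here, and MRPL2, MRPL24 and MRPL1 stayed below the vector library.

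**Figure D2:**
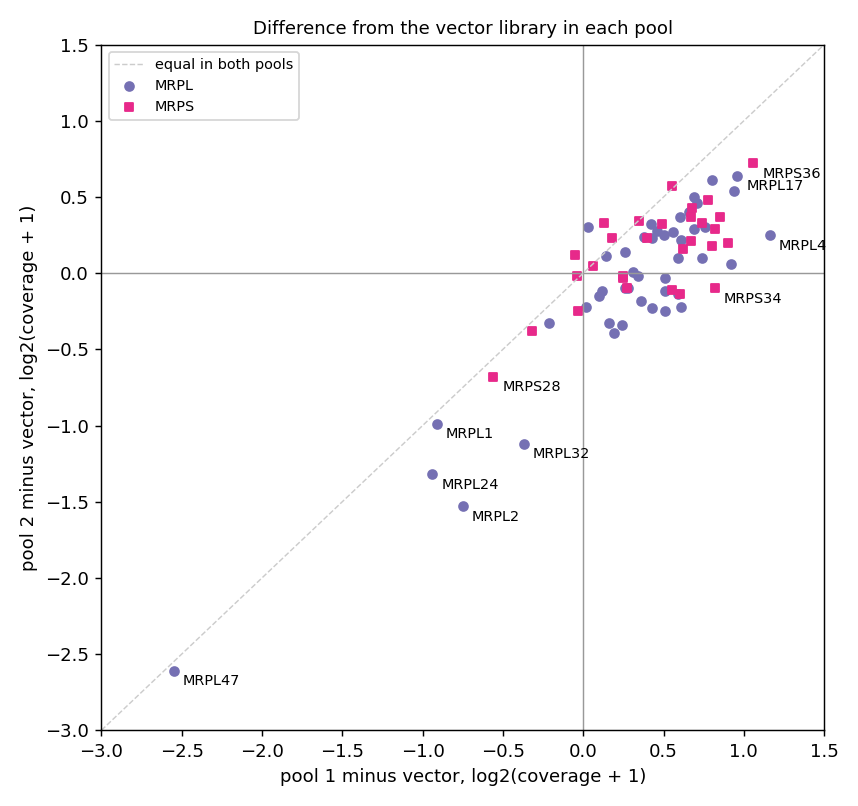
Log2 difference from the vector library in pool 1 (horizontal axis) and pool 2 (vertical axis) for the 75 genes, circles for MRPL and squares for MRPS symbols, with a dashed line where the pools are equal. Most points lie below the dashed line within 1 log2 unit of the origin, and MRPL47 lies apart at -2.55 and -2.61.

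MRPL47, a protein at the exit of the tunnel through which the new chain leaves the large subunit, was the gene that fell. On hg19 it lies on the minus strand of chromosome 3, from 179306073 to 179322437. Its transcript NM_177988 reached 304 with the vector, 51.0 in pool 1 and 49.0 in pool 2, a pool mean of 50.0 ± 1.39 (SD, n = 2). The pools nearly coincided and the vector library lay far above them. The log2 fold was -2.58 (SE 0.17, limma adjusted p = 0.0155). The other transcript of the gene, NM_020409, had 32.3, 44.7 and 29.6, and its vector value lay between the pools. Its log2 fold was 0.17 (limma adjusted p = 0.784 with every row tested on its own). The fall of MRPL47 therefore rests on 1 vector value of 1 transcript row. Exons of MRPL47 overlap those of ACTL6A, a subunit of chromatin remodelling complexes, and the library kit as described does not mark strand. The 3 rows of ACTL6A had 29.2 to 40.7 in the vector library, 42.4 to 43.9 in pool 1 and 36.1 to 37.3 in pool 2. The part of overlapping reads in the MRPL47 values was not tested.

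MRPL24, another protein of the tunnel exit region (chromosome 1, 156707095 to 156711382, minus strand), has a pair of rows with the same pool values. NM_145729 had 439.7 with the vector, 228 in pool 1 and 176 in pool 2, and NM_024540 had 95.6, 228 and 176. The pools stood below the vector library in the first row and above it in the second. The log2 fold was -1.13 (SE 0.29, limma adjusted p = 0.150) in the first, which has the higher mean over the 3 libraries and so stands for the gene in the counts above, and 1.06 in the second. The direction of MRPL24 is therefore set by which vector value is taken. With a filter at the median, and with genes above 0 in both pools only, the first row passed (limma adjusted p = 0.0161 and 0.0392).

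Rows of a gene with the same pool values but unlike vector values, as in MRPL24, occurred in the table as a whole. Among 1111 sets of rows of 1 gene with the same value in pool 1 (above a coverage of 10), pool 2 values lay within 10% of each other in 98.6% and were never 2-fold or more apart. Vector values lay within 10% in 54.2% and were 2-fold or more apart in 12.1%. Choosing the sets by equal pool 1 values favours agreement in pool 2, so these shares do not compare the columns evenly. Among the 6 such sets of mitochondrial ribosomal protein genes, pool 2 was within 10% in 6, the vector library in 3, and MRPL24 was the set 2-fold apart. A vector value above 10 was exactly equal to that of a row of another gene in 17.5% of all rows (9.99% in pool 1, 10.7% in pool 2). In the rows of these genes this was so in 7 of 107 with the vector, 11 of 107 in pool 1 and 12 of 104 in pool 2, so the excess in the vector column was not seen within the family. The 7 are rows of MRPL1, MRPL42, MRPL52, MRPS10, MRPS14, MRPS16 and MRPS18B. Whether some vector values belong to other rows was not tested, and every fold given here rests on the vector column as listed. Of the 17 mitochondrial ribosomal protein genes with several rows, 5 had rows whose mean log2 folds lay 1 or more apart: MRPL47 (by 2.75), MRPL24 (2.19), MRPL21 (1.27), MRPL33 (1.06) and MRPL52 (1.06). MRPL21 had 33.7, 40.5 and 31.5 in NM_181515 and 41.2, 25.2 and 12.2 in NM_181514. MRPL33 had 46.0, 70.8 and 39.5 in NM_004891 and 61.8, 48.4 and 23.2 in NM_145330. In these 2 genes the rows differ in the pools as well, unlike in MRPL24. Rows of MRPL52 spanned 0.63 log2 units with the vector, 1.56 in pool 1 and 1.40 in pool 2. Those of MRPL43 spanned 1.53, 2.09 and 2.41. The other 59 genes have a single row and cannot be checked in this way. No count here can be repeated without the vector library, since it is the only one of its group.

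**Figure D3:**
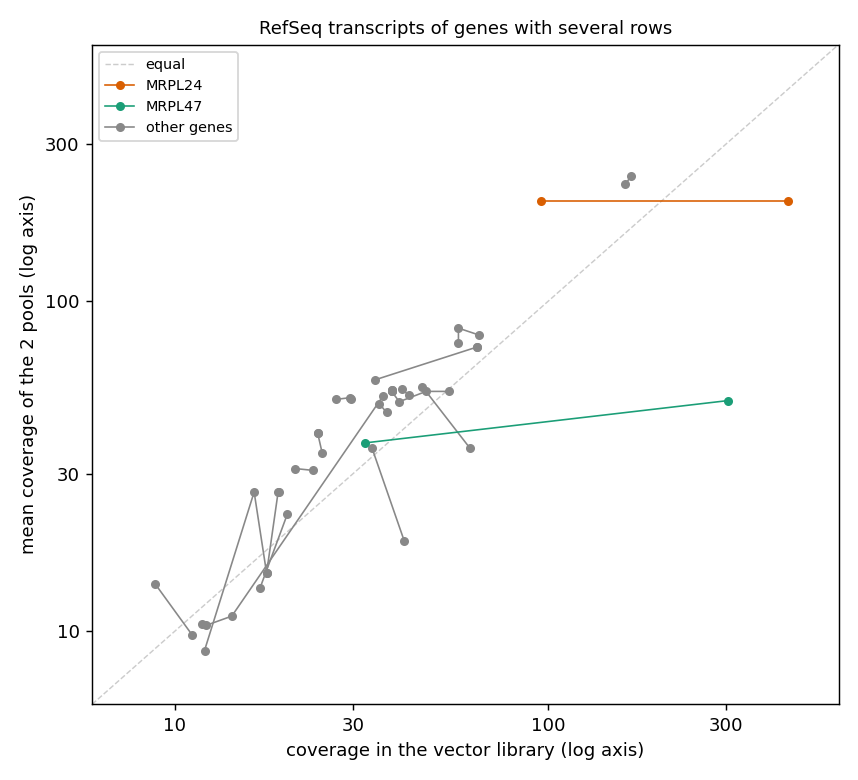
Coverage in the vector library (horizontal, log axis) against mean coverage of the 2 pools (vertical, log axis) for each RefSeq transcript of the 17 genes with several rows, rows of a gene joined by a line. The line of MRPL24 is flat, from 95.6 to 439.7 in the vector library at 1 pool mean of 202, and that of MRPL47 spans 32.3 to 304.

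MRPL2, MRPL1, MRPL32 and MRPS28 completed the 6 lowest log2 folds, and none of them passed the test. MRPL2, which lies near the catalytic centre of the large subunit, reached 70.7 with the vector, 41.5 in pool 1 and 23.9 in pool 2. Both pools were below the vector library but also far from each other, and the log2 fold was -1.14 (SE 0.48, limma adjusted p = 0.261). MRPL1, a protein of the flexible stalk through which tRNAs leave, had 23.7, 12.1 and 11.4 (-0.95, SE 0.27, limma adjusted p = 0.176). Its vector value is 1 of the 7 that equal the value of another gene's row, here FYTTD1, with 37.5 and 32.4 in the pools. MRPL32, a large-subunit protein whose maturation by a mitochondrial protease is needed for ribosome assembly, had 86.1, 66.4 and 39.0 (-0.75, SE 0.47, limma adjusted p = 0.377). MRPS28, a small-subunit protein, had 46.6, 31.4 and 28.7 (-0.62, SE 0.21, limma adjusted p = 0.206). In MRPL1 and MRPS28 the pools agreed within 0.12 log2 units and in MRPL2 and MRPL32 they lay 0.77 and 0.75 apart. MRPL13, MRPS9, MRPS30 and MRPS6 were also lower in both pools, by mean log2 folds from -0.03 to -0.35.

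At the upper end no gene passed the test. MRPS36 had the highest log2 fold, with 11.4 with the vector, 24.8 in pool 1 and 19.4 in pool 2 (0.89, SE 0.32, limma adjusted p = 0.223). It was named as a ribosomal protein and is now regarded as a component of the 2-oxoglutarate dehydrogenase complex of the citric acid cycle. MRPL17, at the tunnel exit, had 22.3, 44.3 and 35.2 (0.80, SE 0.27, limma adjusted p = 0.211). MRPL14, which sits at the interface of the subunits, had 51.4, 99.6 and 75.0 (0.74, limma adjusted p = 0.241). MRPL42 had 24.1, 42.7 and 37.4 (0.71, limma adjusted p = 0.195), and MRPL4 had 29.4, 67.0 and 35.1 (0.71, limma adjusted p = 0.456). MRPS25, a small-subunit protein found only in mitochondria, had 54.8, 94.7 and 76.7 (0.63, limma adjusted p = 0.238). In all 6 genes both pools exceeded the vector value, and pool 1 exceeded pool 2. MRPS36 was the gene that rose after the shift by genes with a mean above 50 (limma adjusted p = 0.0372). MRPL4 and MRPS36 were the genes at least 1 log2 unit above the vector library in pool 1, and no gene reached this in pool 2.

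By class, large-subunit proteins with a bacterial counterpart (28 genes) had a median log2 fold of 0.18, with 13 genes higher in both pools, 6 lower in both and 1 that fell. Large-subunit proteins found only in mitochondria (20 genes, among them MRPS18A and MRPS30, which sit in the large subunit despite their names) had a median of 0.20, with 11 higher and 1 lower. Small-subunit proteins with a bacterial counterpart (16 genes) had a median of 0.27, with 9 higher and 3 lower. Those found only in mitochondria (10 genes) had a median of 0.40, with 8 higher and 0 lower. The genes lower in both pools were thus in classes with a bacterial counterpart except MRPS30. The ranges of the classes overlap widely, and the difference between them was not tested. The 3 proteins of the stalk and its base, MRPL10, MRPL11 and MRPL12, were higher in both pools (0.42, 0.16 and 0.37), by 0.01 in pool 2 in the case of MRPL11. The 6 genes of the tunnel exit ran from MRPL47 at -2.58 to MRPL17 at 0.80, and MRPL45, which ties the ribosome to the inner membrane, stood at 0.42 (46.2, 71.1 and 54.2). The central protuberance, a landmark of the large subunit above the tRNA sites (6 genes), had a median of 0.20, and MRPL18, whose bacterial relative binds 5S rRNA, was the highest of the 6 at 0.60.

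**Figure D4:**
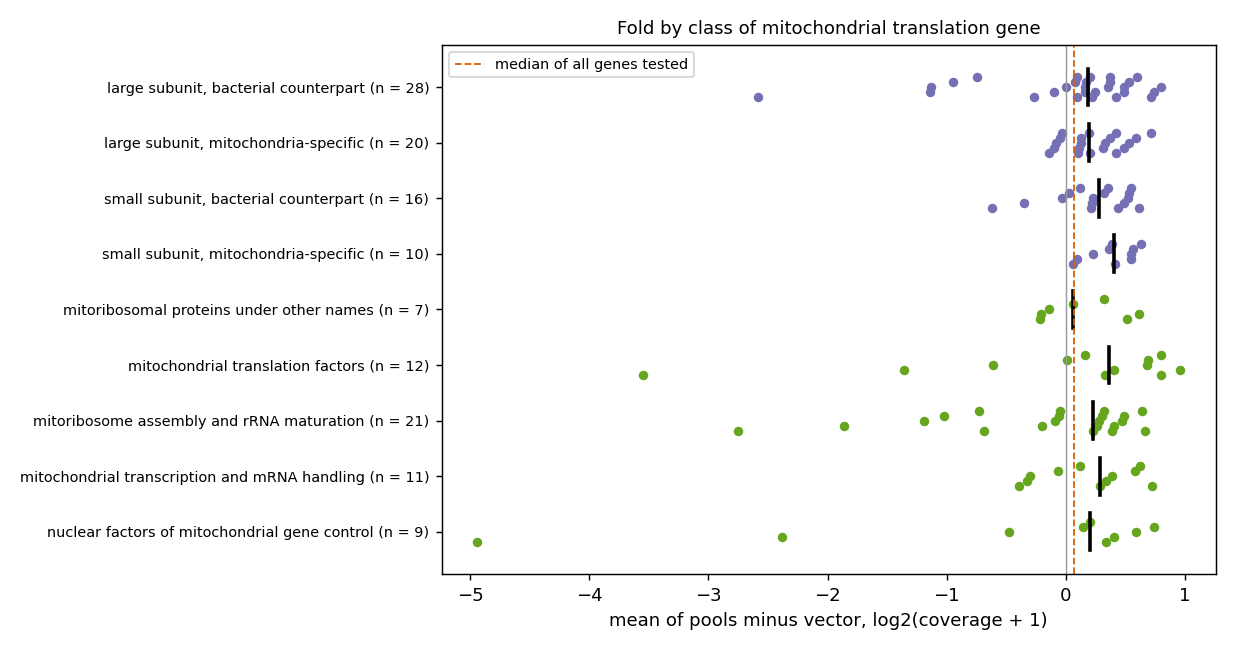
Mean log2 difference of the pools from the vector library for each gene (points), with the median of each class as a black bar, and the median of all genes tested, 0.07, as a dashed line. The classes of mitochondrial ribosomal proteins have medians from 0.18 to 0.40, and the points farthest to the left include MRPL47 and, in the other classes, PPARGC1A, MTRF1L, GTPBP10, GABPB1 and TRUB2.

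Between the pools, coverage was lower in pool 2 than in pool 1 in 69 of the 75 genes (92.0%), with a median log2 difference of -0.30. Over all genes tested the share was 77.2% and the median -0.27, and among genes with a mean above 50 the share was 92.4% and the median -0.32. The offset was therefore shared with other well-covered genes, and with library medians set equal the median difference was 0.03. The widest gaps were in MRPS34 (105 with the vector, 187 in pool 1, 98.3 in pool 2), MRPL4 and MRPL23 (41.1, 78.3 and 42.7), with log2 differences of -0.92, -0.92 and -0.86. In MRPS34 and MRPL23 pool 2 was near the vector library and pool 1 stood apart. The 6 genes higher in pool 2 included MRPL22 (20.0, 20.4 and 24.9), MRPS18B (16.5, 18.2 and 21.1) and MRPS18C (29.5, 28.4 and 32.1), by 0.28, 0.20 and 0.17. The difference between the pools moved with base composition. Across the 75 genes it correlated with the GC content of the transcript with a Pearson's r of -0.39 (rho -0.35), and across 7098 tested genes with a pool mean above 10 with -0.41 (-0.42). The genes at or below the median GC of 48.0% had a median difference of -0.26 and those above it -0.38. The part of base composition in the gap between the pools was not tested further.

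A microRNA acts mostly through its seed, bases 2 to 8, which pairs with sites in the 3′ untranslated region of a messenger RNA and lowers its stability or translation. The mature miR-181a-5p is shown, from RefSeq, with the seed in capitals. Below it stand the sites in mitochondrial ribosomal protein genes with the longest match searched, TGAATGTA in capitals, which pairs with the seed and has an A opposite the first base. Each is printed 5′ to 3′ on the strand of the gene.

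hsa-miR-181a-5p: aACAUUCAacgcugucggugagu
MRPL50: tgttatagttgTGAATGTAaatagtattca
MRPS16: tctttatagttTGAATGTAtttgaataact
MRPS21: gctcaaaaagtTGAATGTActtaatgccac
MRPS33: tgggaaagatcTGAATGTAagaggaactta
MRPS35: cataacgacctTGAATGTAattggagtaag

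The sites lie in the 3′ untranslated region of the annotated canonical transcript, on GRCh37, the assembly also called hg19. The match in MRPL50 is at chr9:104151257-104151264 (minus strand), in MRPS16 at chr10:75009137-75009144 (minus), in MRPS21 at chr1:150281325-150281332 (plus), in MRPS33 at chr7:140703502-140703509 (minus) and in MRPS35 at chr12:27909067-27909074 (plus). MRPS21 had the coverage given above, higher in both pools. MRPL50 had 29.4 with the vector, 39.8 in pool 1 and 34.6 in pool 2 (log2 fold 0.33), MRPS16 had 72.4, 96.1 and 84.8 (0.32), MRPS33 had 40.5, 57.1 and 51.0 (0.41) and MRPS35 had 22.4, 34.8 and 25.1 (0.39). All 5 genes with this match were above the vector value in both pools, and none passed the test. Under the shift by genes with a mean above 50, MRPL50 and MRPS16 stood at -0.05 and -0.07, MRPS33 and MRPS35 turned below 0 only under the shift by the pool mean (-0.07 and -0.08), and MRPS21 stayed above 0. The match was found in 5 of 75 genes (6.67%) and in 825 of 12343 tested genes with an annotated 3′ untranslated region (6.68%). The 7-base match TGAATGT was found in 14 (18.7%) and 2547 (20.6%). The median length of the region was 465 bases in the mitochondrial ribosomal protein genes and 1225 over all genes. The median log2 fold was 0.38 in the 14 genes with the 7-base match and 0.21 in those without, against 0.06 and 0.08 over all genes. MRPL47 and MRPL24 have no 7-base match in the region searched. A match is a description of these letters and not a measured site of action, and 1 transcript was searched per gene.

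Genes of this family share promoter features that the choice by symbol did not use. RefSeq promoters (GRCh38.p14, 250 bases before to 50 after the start, 300 in all) were found for 67 of the 76 genes, 83 in number. The letters CCGGAAG, a core bound by ETS factors such as GABPA, were found on either strand in 38.6% of these promoters, against 16.2% of the promoters of tested genes and 10.3% of all 35116 promoters in the table. The letters AANATGGCG, bound by YY1, were found in 21.7%, 5.82% and 3.19%. The letters GCGCNTGCG, bound by NRF1, were found in 14.5%, 12.2% and 7.47%, CCAAT in 33.7%, 35.3% and 34.6% and TATAAA in 3.61%, 7.05% and 11.5%. The promoters of MRPL51, among the genes of highest coverage, and of MRPL32, one of the 6 lowest in log2 fold, are shown as examples of the first pair of motifs. Capitals mark CCGGAAG or its reverse complement in MRPL51 and AANATGGCG or its reverse complement in MRPL32. No letters of these motifs overlap.

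MRPL51 promoter, chr12:6493213-6493512, minus strand: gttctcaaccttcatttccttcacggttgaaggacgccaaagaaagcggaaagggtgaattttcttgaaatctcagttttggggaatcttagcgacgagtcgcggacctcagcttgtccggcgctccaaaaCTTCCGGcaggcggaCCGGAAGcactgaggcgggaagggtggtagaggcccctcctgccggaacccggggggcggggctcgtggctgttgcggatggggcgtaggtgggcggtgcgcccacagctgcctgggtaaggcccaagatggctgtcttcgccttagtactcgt
MRPL32 promoter, chr7:42932126-42932425, plus strand: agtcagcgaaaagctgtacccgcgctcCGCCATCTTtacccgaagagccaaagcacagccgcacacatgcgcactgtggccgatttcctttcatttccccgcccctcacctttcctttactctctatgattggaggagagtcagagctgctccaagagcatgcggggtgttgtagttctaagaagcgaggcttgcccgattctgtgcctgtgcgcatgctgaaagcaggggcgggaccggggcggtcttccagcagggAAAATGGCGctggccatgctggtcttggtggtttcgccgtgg

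The motifs did not divide the genes by fold. The 28 tested genes with CCGGAAG had a median log2 fold of 0.27 and the 38 without it 0.23. The 18 genes with AANATGGCG had 0.22 and the 48 without it 0.31. MRPL51, with 2 matches of the first motif, stood at 0.37, and MRPL32, with 2 of the second, at -0.75.

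Of 65 other listed genes of mitochondrial gene expression, 60 were tested, 0 rose and 3 fell (limma, adjusted p below 0.05), and the median log2 fold was 0.24. The background shares of 1.00% and 21.7% apply here too, and with the row of highest pool mean in place of the highest mean over the 3 libraries, 1 of these genes, PPARGC1A, fell. Mitoribosomal proteins under other names (7 genes) had a median of 0.06 and no call. Among them MRP63 stood at 0.61, CHCHD1 at 0.51, GADD45GIP1 at -0.21 and AURKAIP1 at -0.22. Of 12 translation factors, with a median of 0.37, MTRF1L, a release factor, fell from 166 in the vector library to 12.5 in pool 1 and 14.1 in pool 2 (-3.55, SE 0.22, limma adjusted p = 0.0144). MTRF1L did not pass with the row of highest pool mean. With every row tested on its own, the row used here was the only row of MTRF1L that passed. MTIF2, the initiation factor, had 21.9, 48.3 and 39.2 (0.96), and GFM1, the elongation factor that moves the ribosome along, had 15.5, 29.8 and 25.9 (0.80), neither past the test. GUF1 had 42.2, 18.9 and 13.3 (-1.36). The factors closest to the ribosome in function thus had values on both sides of the vector library.

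Of 21 genes of ribosome assembly and rRNA maturation, with a median of 0.23, TRUB2, a pseudouridine synthase, fell from 106 to 31.3 and 26.2 (-1.86, SE 0.23, limma adjusted p = 0.0496). TRUB2 did not pass with no filter, with a pseudocount of 10, without the variance trend or under any of the other choices of row. GTPBP10, an assembly GTPase, had 43.7, 6.72 and 4.68 (-2.75, limma adjusted p = 0.0571). C18orf22 and ERAL1, which chaperone the small subunit's RNA, stood at 0.66 and 0.64. The 11 genes of mitochondrial transcription and mRNA handling had a median of 0.29 and no call, with PTCD1 at 0.72, TFB2M at 0.62, POLRMT, the mitochondrial RNA polymerase, at -0.33 and TFAM, which packages mitochondrial DNA, at -0.39. Of 9 nuclear factors of mitochondrial gene control, with a median of 0.20, PPARGC1A, a coactivator of mitochondrial biogenesis, fell from 29.7 in the vector library and is listed at 0 in both pools (limma adjusted p = 8.78e-06). It passed the filter on low values only through its vector value, and both pools at 0 leave no spread between them (SE 0.01). The call therefore rests on the vector value alone and is not used as support. GABPB1, the partner of the ETS factor GABPA, had 106, 23.1 and 16.7 (-2.38, limma adjusted p = 0.0580), whereas GABPA itself had 10.9, 15.1 and 13.1 (0.34). NRF1 stood at 0.74 and YY1 at 0.59, neither past the test.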

How the data were processed

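Messenger RNA was enriched from total RNA with oligo(dT) beads, per the labels' protocols. Reads mapped by the authors to hg19 were deposited as the median coverage in sliding windows of 50 bp for each RefSeq transcript, per the labels' protocols. Log transformation and quantile normalization are named there too, but the deposited signal is linear and its quantiles differ between libraries. The aligner is not given in the sources used here.

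Symbols turned into dates were restored in 54 rows, and 308 rows without a vector value were left out. A gene was represented by the row whose mean over all libraries was highest. Values were taken as log2(coverage + 1), and 12552 genes, whose mean exceeded the 25th percentile of genes not at 0 in all libraries (2.44), were tested with limma 3.58.1 in R 4.3.3 (lmFit, eBayes with a variance trend, Benjamini-Hochberg threshold 0.05), the pools against the vector library. The fit was tested on simulated libraries, all drawn around the pool means with a common spread and no offset between libraries. These lack the features of the vector library, so they cannot judge calls that rest on single vector values. Sequences came from RefSeq tables and from GRCh37 with GENCODE 44 annotation, which gave a 3′ untranslated region for 98.3% of tested genes. Alternatives changed the filter, pseudocount, scaling, choice of row, variance model and size threshold, and left out each pool.

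Named genes were those past the test or the size rule, the 6 highest and 6 lowest log2 folds, the 4 highest and 4 lowest by coverage, the 3 farthest each way between the pools, genes with a blank vector value, with rows at least 1 log2 unit apart or with the longest seed match, and in other lists genes past the test and the 2 highest and 2 lowest. Other genes were named as examples after their values were seen. The members and lists were chosen with earlier results of these data known.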

Additional observations from a re-analysis of the deposited data

How the results depend on the processing

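With the 2 filters that test fewer genes (at the median, and only genes above 0 in both pools), 2 mitochondrial ribosomal protein genes fell, MRPL24 and MRPL47. Over all genes tested, 402 rose and 1476 fell of 8368 with the first filter. With the second, 611 rose and 2178 fell of 11971. MRPL47 fell in every setting with a test. Of the other genes of mitochondrial gene expression, 1 rose and 5 fell with the filter at the median, and 6 fell among genes above 0 in both pools. With a pseudocount of 0.1, 5 of them fell, beside 2644 of all 12552 genes tested. With the row of highest pool mean 1 fell, PPARGC1A, beside 2319 of 12326. PPARGC1A, whose call is not used as support, is counted as fallen in every setting except that of genes above 0 in both pools. With no filter, the mean of a gene's rows, every row on its own or no variance trend, 2 of the other genes fell, MTRF1L and PPARGC1A. Over all genes, 5626 of 16737 fell with no filter, 2490 of 12552 with the mean of rows and 2410 of 12552 without the trend. Of all rows on their own, 3303 of 19181 fell.

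With library medians set equal, 62 mitochondrial ribosomal protein genes rose and 4 fell, 5 were at least 1 log2 unit higher in both pools, 68 were higher in both pools, the median log2 fold was 0.65, the median difference of pool 2 minus pool 1 was 0.03, and 37 of the other genes rose and 8 fell. With quantile normalization the corresponding values were 23 and 3, with 4 genes at least 1 log2 unit higher and 2 lower, a median of 0.41, a difference between the pools of 0.05, and 26 and 9 of the other genes. With pools shifted by genes with a mean above 50, they were 1 and 13, with 4 genes at least 1 log2 unit lower and 19 higher in both pools, a median of -0.15, a difference of 0.04, and 1 and 20 of the other genes. With the shift by genes with a pool mean above 50, chosen after the data had been seen, 16 fell, 5 were at least 1 log2 unit lower, 12 were higher in both pools, the median was -0.24, the difference was 0.04, and 1 of the other genes rose and 24 fell. The median standard error over the 75 genes was 0.28 as reported and 0.14 to 0.19 under these scalings. Over all genes tested the median log2 fold was 0.49 with medians set equal and 0.48 with quantile normalization. It was -0.31 and -0.40 under the shifts by the mean and by the pool mean. Among these scalings, the median of the family lay below that of all genes with quantile normalization only. Shares of all genes for the size and sign counts under these scalings are not given here.

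Under the shift by the mean above 50, log2 folds of 32 of the 75 genes turned negative, among them 11 of the named genes, MRPL12 and MRPL51 (-0.01 each), MRPS34 (-0.02), MRPL50 (-0.05), MRPS16 (-0.07), MRPS10 and MRPS18B (-0.15 each), MRPL33 (-0.18), MRPL22 (-0.21), MRPL21 (-0.30) and MRPS18C (-0.35). Under the shift by the pool mean 38 did so, among them 14 of the named genes, MRPL52 (-0.05), MRPS33 (-0.07), MRPS35 (-0.08), MRPL12 and MRPL51 (-0.10 each), MRPS34 (-0.11), MRPL50 (-0.14), MRPS16 (-0.16), MRPS10 and MRPS18B (-0.24 each), MRPL33 (-0.27), MRPL22 (-0.30), MRPL21 (-0.39) and MRPS18C (-0.44). With the mean of a gene's rows MRPL21, MRPL22 and MRPL33 stood at -0.47, -0.03 and -0.31, and with the row of highest pool mean MRPL24 stood at 1.06. The cause of these changes was not tested.

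Leaving out each pool in turn gives 1 library against 1 and no test. The genes higher than the vector library then numbered 43 to 64, those at least 1 log2 unit higher 0 to 2, those at least 1 log2 unit lower 1 to 4 and the median log2 fold was 0.11 to 0.46. Over all genes tested the median was 0.24 with pool 1 alone and -0.12 with pool 2 alone. With a size threshold of 0.5, 6 genes were higher and 5 lower in both pools. Shares over all genes for the counts in this paragraph are not given here, so they are not read as a result about the family. No paired analysis was possible because the vector group has 1 library. The depth is unknown, so no counting error is given.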
